A study of Mus musculus with 12 samples.

Results

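Bone marrow–derived macrophages (BMDMs) labelled untreated were compared between 3D collagen gels and tissue culture (TC) plates. The comparison took 6 of the 12 RNA-seq libraries of the series, chosen by their labels: 2 from low-collagen gels (2 mg/ml), 2 from high-collagen gels (7 mg/ml) and 2 from TC plates. All 6 came from wild-type C57BL/6 mice (C57BL/6J in the growth protocol), were labelled 24 hours of culture, and received no IL-4. The BMDMs had been differentiated in medium conditioned by L929 cells, a fibroblast line that supplies the macrophage growth factor CSF1, and were then lifted and either embedded in rat tail collagen I or seeded on plastic. The other 6 libraries came from the same 3 surfaces with IL-4 (20 ng/ml) and served to estimate the spread and for 1 comparison at the end.

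Macrophages attach to their surroundings through integrins and other matrix receptors, and the actin network that these receptors anchor is built differently on flat, rigid plastic than inside a soft fibrillar gel. The same cells read local oxygen, sterols and amino acids through transcription programs that are known separately: HIF for low oxygen, SREBP2 and LXR for cholesterol, and ATF4 for amino acid supply. Because their division depends on CSF1, a culture of BMDMs also holds a varying share of cells in cycle.

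Gels and plates differed in more than collagen. The methods of the study give more cells for a gel than for a well, a floating gel in a plate without tissue culture coating, and, for gels, RNA taken up after the gel had been broken apart in the lysis reagent. Dimension, stiffness, cell density, oxygen supply and harvest therefore cannot be told apart in any result given here. The labels number the libraries 1 and 2 in each group and do not say whether they came from separate cultures or animals, so that p-values measure the spread between these libraries, which may be technical. In bulk RNA, fewer cells with a transcript and fewer transcripts per cell cannot be told apart either.

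The libraries were alike in the number of genes detected. Values are TPM, the authors' unit of transcript abundance, scaled for transcript length and to a common total per library. That scaling sets the totals, 999658 to 999723 TPM. Between 11670 and 11910 genes reached 1 TPM, and replicates correlated at 0.979 to 0.983 on the log2(TPM + 1) scale. Since TPM carry no read numbers, the depth behind a value is unknown. Mitochondrially encoded genes took 5.22% and 5.25% of the TPM on plates and 3.30% to 4.07% in gels, and ribosomal protein genes 9.09% and 8.89% on plates and 10.8% to 11.96% in gels. The macrophage label was borne out by Csf1r, the CSF1 receptor, at 704 TPM or more in every library, and by Lyz2, the lysozyme of myeloid cells, at 23418 TPM or more.

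Gel and plate libraries stood farther apart than replicates did. On the first principal component, which held 73.9% of the variance, the plates lay at −64.4 and −64.2 and the gels between 27.8 and 34.0. The Euclidean distance between a gel and a plate library averaged 103 (99.4 to 104.5 over 8 pairs), 2.33 times the 44.2 between replicates (42.0 to 45.5 over 3 pairs). Low- and high-collagen libraries were 50.1 apart (47.8 to 53.1 over 4 pairs), or 1.13 times the distance between replicates.

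Of 11888 genes with a mean of at least 1 TPM over the 6 libraries, limma called 7648 (64.3%) between the 4 gel libraries and the 2 plate libraries at an adjusted p-value under 0.05. There were 2916 genes called higher in gels (24.5%) and 4732 called lower (39.8%), and 887 and 1594 of them changed at least 2-fold. Over all genes tested the median change was −0.15 on the log2 scale, and the 10 most abundant genes took 12.95% and 12.91% of the TPM on plates and 16.1% to 17.8% in gels. Median-ratio rescaling of the libraries moved that median to 0.02. It gave 3830 genes called higher (32.2%) and 3826 called lower (32.2%), an even split in place of the excess of lower calls. No gene was called in opposite directions with and without rescaling (0 genes), but 906 of the genes called lower were no longer called and 914 genes not called before were called higher. All 4 gel libraries lay on the same side of both plate libraries for 69.9% of the genes tested. For a single gene, an exact permutation test of 4 against 2 libraries cannot give a p-value under 0.0667, so single calls rest on the variance that limma moderates over genes and over all 12 libraries.

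**Figure D1:**
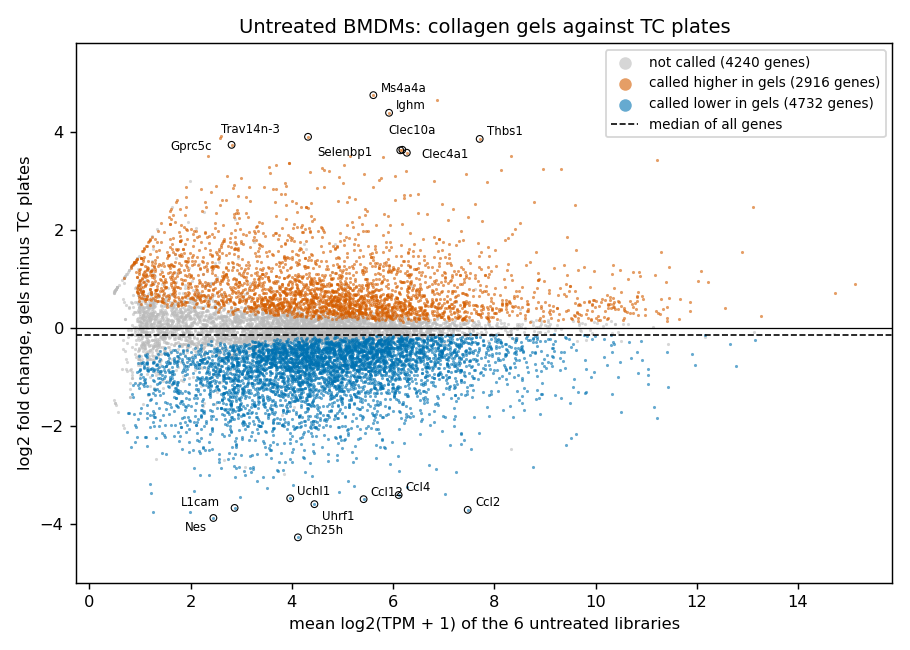
Each point is 1 of 11888 genes, with its mean log2(TPM + 1) over the 6 untreated libraries on the x axis and the log2 fold change of gels minus TC plates on the y axis; orange and blue points were called higher (2916) or lower (4732) by limma and the 16 circled genes are the largest changes named in the text. The dashed line is the median of all genes, −0.15, which lies below 0.

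Most changes held in each gel alone. Against the same 2 plate libraries, low-collagen gels had 7082 genes called (59.6%), 2700 higher (22.7%) and 4382 lower (36.9%), and high-collagen gels had 7209 (60.6%), 2651 higher (22.3%) and 4558 lower (38.3%). After rescaling the directions were even here too, with 3551 genes higher and 3544 lower in low-collagen gels and 3574 higher and 3613 lower in high-collagen gels. Both comparisons share the plate libraries and are therefore not independent of each other. In both gels, 2252 genes were called higher (18.9%) and 3996 lower (33.6%), and 6 were called in opposite directions; after rescaling 3088 were higher and 3147 lower in both. Requiring the call with and without rescaling, in each gel and in both together, left the same count of 2252 genes higher (18.9%) and 3147 lower (26.5%). Of the 828 genes called in low-collagen gels alone, 34 also differed between the gels, as did 62 of the 955 called in high-collagen gels alone, so that for the rest a difference between gels was not shown.

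The largest rise was that of Ms4a4a, which encodes a tetraspan membrane protein of macrophages (chromosome 19, 11375523 to 11392790 on GRCm38). It was at 6.14 and 3.17 TPM on TC plates, at 168 and 219 TPM in low-collagen gels and at 124 and 96.8 TPM in high-collagen gels (log2 fold change 4.74, SE 0.21, adjusted p = 7.14e-08). Every gel library was above both plate libraries, which the choice of the 8 rises named here required. Thbs1, the matricellular glycoprotein thrombospondin 1 (chromosome 2, 118111876 to 118127133), went from 35.9 and 32.9 TPM on plates to 438 and 435 TPM in low-collagen and 668 and 528 TPM in high-collagen gels (log2 fold change 3.85, SE 0.10, adjusted p = 5.33e-09). Clec10a, a galactose-binding C-type lectin receptor (chromosome 11, 70156197 to 70170834), was at 14.8 and 10.7 TPM on plates, 132 and 137 TPM in low-collagen and 233 and 185 TPM in high-collagen gels (3.63, SE 0.12, adjusted p = 1.01e-08). These 3 genes encode proteins of the cell surface or of the matrix around the cell. Selenbp1, a selenium-binding protein that oxidizes methanethiol, rose from 12.4 and 12.1 TPM to between 142 and 183 TPM in gels. Gprc5c, an orphan receptor, was at 0.435 and 0.0907 TPM on plates and at 13.4 to 17.1 TPM in gels, and its log2 fold change of 3.73 is limited by the pseudocount.

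The other 3 of the 8 largest rises carry a limit of assignment. Ighm, the constant region of the immunoglobulin mu heavy chain (chromosome 12, 113418558 to 113422730), was at 7.33 and 6.67 TPM on plates, 216 and 185 TPM in low-collagen and 139 and 136 TPM in high-collagen gels (log2 fold change 4.38, SE 0.09). Trav14n-3, annotated as a variable segment of the T cell receptor alpha locus (chromosome 14, 53370077 to 53370575), was at 1.51 and 3.35 TPM on plates and at 45.3 to 49.9 TPM in gels (3.89, SE 0.24). Of the lymphocyte markers, Cd79b, the B cell receptor chain, rose with them at a low level, from 1.02 and 1.50 TPM to 4.38 to 5.79 TPM in gels, and the summed level of the list went from 2.84 and 2.43 TPM to 5.35 to 7.36 TPM, while Cd3e, of the T cell receptor complex, and Nkg7 and Ncr1, of natural killer cells, were listed at 0 in all 6 libraries. The part of lymphocytes in these rises was not tested. Trav14n-3 and the lectin receptor Clec4a1, which went from 13.4 and 14.3 TPM to between 153 and 194 TPM, have close relatives in the genome between which kallisto divides reads, so their levels are uncertain.

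**Figure D2:**
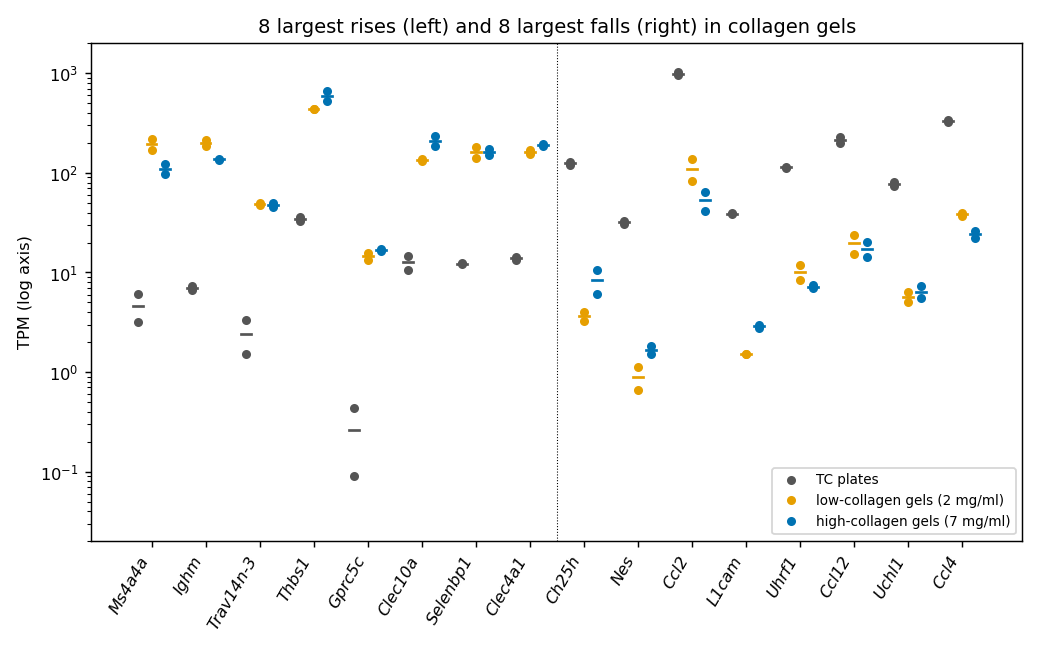
TPM (log axis) of the 8 largest rises and 8 largest falls among the genes called in both gels together and in each alone, with points for the 2 libraries of each group and bars for their means. The choice of the 16 genes required all gel libraries to lie on the same side of both TC plate libraries. Low- and high-collagen libraries overlapped in some of them, such as Selenbp1.

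The largest fall was that of Ch25h, the cholesterol 25-hydroxylase (chromosome 19, 34473778 to 34475164). It was at 128 and 121 TPM on plates, 3.27 and 4.04 TPM in low-collagen gels and 10.6 and 6.04 TPM in high-collagen gels (log2 fold change −4.28, SE 0.17, adjusted p = 3.00e-08). Nes, the intermediate filament protein nestin, fell from 32.7 and 31.0 TPM to 0.655 to 1.82 TPM, and L1cam, a neural cell adhesion molecule on chromosome X, from 38.7 and 39.3 TPM to 1.52 to 2.95 TPM. Both are known as genes of neural cells and were low in the gels. Uchl1, a deubiquitinase, fell from 74.2 and 80.2 TPM to 5.01 to 7.30 TPM. Uhrf1, which recruits the maintenance DNA methyltransferase at replication forks, fell from 113 and 116 TPM to 6.97 to 11.9 TPM. The remaining 3 falls were chemokines, described with their list.

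Genes of the cell cycle fell as a group. Each of the 32 proliferation genes measured was called lower in gels, together and in each gel alone, beside 39.8% of all genes called lower, with a median log2 fold change of −2.03 against −0.15 over all genes (−1.85 against 0.02 after rescaling). Mcm5, a subunit of the replicative helicase, was at 138 and 148 TPM on plates and 12.04 to 15.1 TPM in gels (−3.36, SE 0.14, adjusted p = 3.70e-08). Rrm2, the regulated subunit of ribonucleotide reductase, was at 151 and 142 TPM on plates and 12.2 to 18.6 TPM in gels (−3.13, SE 0.14). The fall covered the entry into S phase as well as mitosis. Ccne1 and Ccne2, the cyclins E that drive the step from G1 to S, fell by 2.94 and 3.06 on the log2 scale, Mcm2 by 2.94, and Mki67, the marker of cycling cells, from 129 and 137 TPM to 34.0 to 42.6 TPM.

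Genes of cholesterol synthesis fell, while of 13 genes of LXR and cholesterol export 7 rose and 4 fell. SREBP2 is known to switch on the synthesis enzymes when sterols are low, and LXR the export genes when sterols are high. Of 24 measured genes of synthesis and uptake, 22 were called lower (39.8% of all genes), in each gel as well, and none higher (0), with a median of −1.65 (−1.47 after rescaling). Pmvk and Tm7sf2 were not called. Fdps, the farnesyl diphosphate synthase, was at 167 and 177 TPM on plates and 22.9 to 29.6 TPM in gels (log2 fold change −2.65, SE 0.07, adjusted p = 5.95e-09). Sqle, the squalene epoxidase, was at 62.4 and 62.04 TPM on plates and 7.91 to 10.9 TPM in gels (−2.63, SE 0.12), and Idi1, an isomerase of the isoprenoid steps, fell by 2.35 on the log2 scale.

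**Figure D3:**
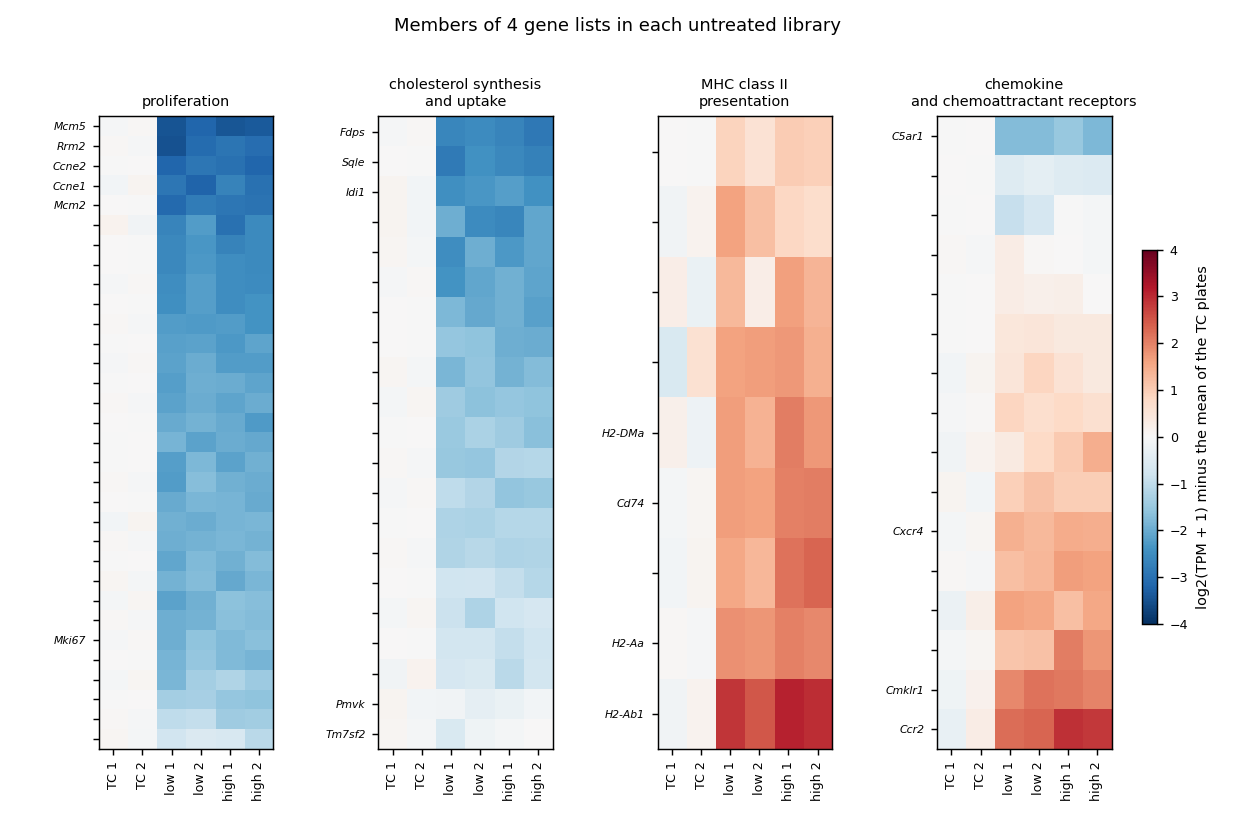
Each row is a measured gene of 4 lists, from which 4 genes not reported here are left out and only genes named in the text are labelled, and each column 1 of the 6 untreated libraries; the color is log2(TPM + 1) minus the mean of the 2 TC plate libraries, in blue where lower and red where higher. Over the whole lists, 32 of 32 proliferation genes and 22 of 24 cholesterol genes were called lower in gels, and 9 of 9 MHC class II genes and 13 of 17 receptor genes higher.

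Of 13 LXR and export genes, 7 were called higher (24.5% of all genes) and 4 lower (39.8% of all genes). The list's median was 0.64 (0.81 after rescaling). Abcg1 and Nr1h3 were not called, and Scarb1 was called but not in each gel. Pltp, the phospholipid transfer protein, was at 112 and 109 TPM on plates, 1266 and 1144 TPM in low-collagen and 966 and 876 TPM in high-collagen gels (log2 fold change 3.24, SE 0.06, adjusted p = 9.18e-10). Apoe, an apolipoprotein of the particles that carry cholesterol out of macrophages, rose from 2777 and 2836 TPM to between 14664 and 17029 TPM (2.47, SE 0.05). Its neighbor Apoc2 rose by 3.00 on the log2 scale, and Apoc1 was listed at 0 in both plate libraries and at 6.00 to 14.0 TPM in gels. Among the members that went down, Srebf1, the regulator of fatty acid synthesis, fell from 96.4 and 83.8 TPM to 38.4 to 42.6 TPM. Genes of fatty acid uptake, storage and synthesis were called lower in 16 of 22 cases (39.8% of all genes) and higher in 6 (median −0.97, −0.79 after rescaling). The desaturase Fads2 (65.8 and 74.5 TPM on plates, 4.71 to 8.47 TPM in gels), the fatty acid synthase Fasn (−2.68), the lipoprotein lipase Lpl (−2.61) and the scavenger receptor Cd36 (−2.15) fell. Angptl4, which inhibits lipoprotein lipase, rose from 0.938 and 0.735 TPM to 7.98 to 13.4 TPM.

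Genes known to respond to low oxygen were among the strongest rises, although the list as a whole was mixed. Of 33 measured genes of hypoxia and glycolysis, 19 were called higher (24.5% of all genes) and 7 lower, with a median of 0.31 (0.49 after rescaling), and 15 higher and 3 lower held in each gel. Vegfa, the angiogenic growth factor, was at 57.7 and 67.0 TPM on plates, 548 and 624 TPM in low-collagen and 609 and 577 TPM in high-collagen gels (log2 fold change 3.22, SE 0.10, adjusted p = 1.02e-08). Bnip3, a mitophagy receptor, was at 63.1 and 56.8 TPM on plates and 313 to 406 TPM in gels (2.53, SE 0.10). Ankrd37 rose from 10.3 and 8.40 TPM to 60.5 to 68.5 TPM (2.66, SE 0.19), Ndrg1 from 20.0 and 19.6 TPM to 82.8 to 112 TPM (2.27) and Egln3, a prolyl hydroxylase of HIF, from 11.9 and 11.8 TPM to 50.6 to 58.9 TPM (2.10). Not every member rose. Pfkp, a phosphofructokinase, fell by 1.13 on the log2 scale, and Hk2 and Pfkfb3 were not called. Ldha, the lactate dehydrogenase chain, and Slc2a1, a glucose transporter, were called lower (−0.18 and −0.32) but not in each gel and not after rescaling, when 3 members were lower in place of 7.

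The promoters of 3 of these rises are shown because each holds the core of the hypoxia response element, ACGTG, on at least 1 strand. They are the 250 bases before the RefSeq transcript start on GRCm38.p6, read 5′ to 3′ on the strand of the gene, with each match to ACGTG or its complement in capitals: Ankrd37 (chr8:45999851-46000100, minus strand), Bnip3 (chr7:138909507-138909756, minus strand) and Egln3 (chr12:54203875-54204124, minus strand).
Ankrd37: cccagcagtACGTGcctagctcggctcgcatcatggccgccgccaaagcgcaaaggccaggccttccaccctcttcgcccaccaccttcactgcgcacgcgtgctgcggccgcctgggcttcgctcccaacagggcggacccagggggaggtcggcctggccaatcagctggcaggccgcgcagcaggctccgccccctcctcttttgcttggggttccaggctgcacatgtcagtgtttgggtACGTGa
Bnip3: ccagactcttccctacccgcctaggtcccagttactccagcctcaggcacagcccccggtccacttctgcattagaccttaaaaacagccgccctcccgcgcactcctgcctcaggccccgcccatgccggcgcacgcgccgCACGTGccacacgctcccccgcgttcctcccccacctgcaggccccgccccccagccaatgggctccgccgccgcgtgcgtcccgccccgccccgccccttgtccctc
Egln3: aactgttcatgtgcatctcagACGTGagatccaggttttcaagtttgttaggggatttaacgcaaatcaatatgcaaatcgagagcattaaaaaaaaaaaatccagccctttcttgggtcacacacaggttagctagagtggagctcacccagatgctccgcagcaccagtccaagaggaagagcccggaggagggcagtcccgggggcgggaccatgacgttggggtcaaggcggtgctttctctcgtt
In Bnip3 the matches of both strands overlap in a single palindrome. ACGTG was found in 20 of 43 distinct windows of the list (46.5%, 30 genes with a window), beside 21.9% of the 11236 windows of all tested genes. Members called higher had it in 10 of 24 windows and members called lower in 4 of 12. Of the rises named above but not shown, Vegfa also had a match and Ndrg1 was not among the genes with one. Matches were also found for Hk2 and Pfkfb3, which were not called, and for Ldha and Slc2a1, which were called lower.

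The unfolded protein and integrated stress responses adapt protein folding and, through ATF4, amino acid supply. Of 31 genes of these responses, 20 were called lower (39.8% of all genes), all of them in each gel, and 9 higher (24.5% of all genes; median −0.81, −0.62 after rescaling). Slc7a5, a transporter of large neutral amino acids, was at 32.7 and 32.8 TPM on plates and 2.21 to 6.86 TPM in gels (log2 fold change −3.01, SE 0.28, adjusted p = 7.21e-06). Asns, the asparagine synthetase, was at 73.3 and 72.1 TPM on plates, 11.7 and 9.85 TPM in low-collagen and 8.04 and 10.4 TPM in high-collagen gels (−2.75, SE 0.15). Psat1 and Phgdh of serine synthesis and Mthfd2 of mitochondrial folate metabolism fell by 2.65, 2.54 and 2.24. Vldlr, a lipoprotein receptor on the same list, rose from 0.0747 and 0.102 TPM to 3.84 to 5.00 TPM, and Ddit4, an inhibitor of mTORC1, from 6.08 and 7.24 TPM to 17.99 to 19.9 TPM.

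The promoter of Asns is shown because it holds a match to the amino acid response element, searched as TGATGNAAN on both strands and set in capitals (250 bases before the RefSeq start on GRCm38.p6, chr6:7693210-7693459, minus strand).
Asns: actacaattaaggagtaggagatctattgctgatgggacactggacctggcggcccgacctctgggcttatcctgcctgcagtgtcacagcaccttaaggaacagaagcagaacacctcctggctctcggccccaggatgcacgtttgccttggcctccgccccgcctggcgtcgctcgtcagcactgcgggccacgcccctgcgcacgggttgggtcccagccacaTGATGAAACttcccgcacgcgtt
This motif was found in 7 of 31 windows of the list (22.6%, 28 genes), beside 2.1% of all 11236 windows, and in 3 of 18 windows of members called lower and 3 of 11 of members called higher.

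Of 16 heat shock genes, 11 were called lower (39.8% of all genes) and 3 higher (24.5% of all genes; median −0.48, −0.30 after rescaling), among them Ahsa1, a co-chaperone of HSP90 (299 and 302 TPM on plates, 75.8 to 93.4 TPM in gels), Hsp90aa1 (−1.80) and the mitochondrial chaperone Hspd1 (−1.76). Hspa1a went the other way, from 1.46 and 2.16 TPM to 5.39 to 13.2 TPM, and may share reads with its near-copy Hspa1b. Of 28 genes of the NRF2 antioxidant and metal response, 16 were called lower (39.8% of all genes). Another 8 were called higher, near the 24.5% of all genes (median −0.53, −0.35 after rescaling). Txnrd1, the cytosolic thioredoxin reductase, fell from 257 and 247 TPM to 48.0 to 58.6 TPM (−2.16, SE 0.08), and Gclc and Gclm, the subunits of the enzyme that starts glutathione synthesis, by 1.95 and 1.65. Among 17 p53 and apoptosis genes 6 rose and 6 fell, and the median (−0.08) changed sign after rescaling (0.10): the survival genes Bcl2 (−2.45) and Bcl2l1 (−2.33) were lower, and the pro-apoptotic Bcl2l11 (1.65) and the stress gene Sesn1 (1.73) were higher.

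**Figure D4:**
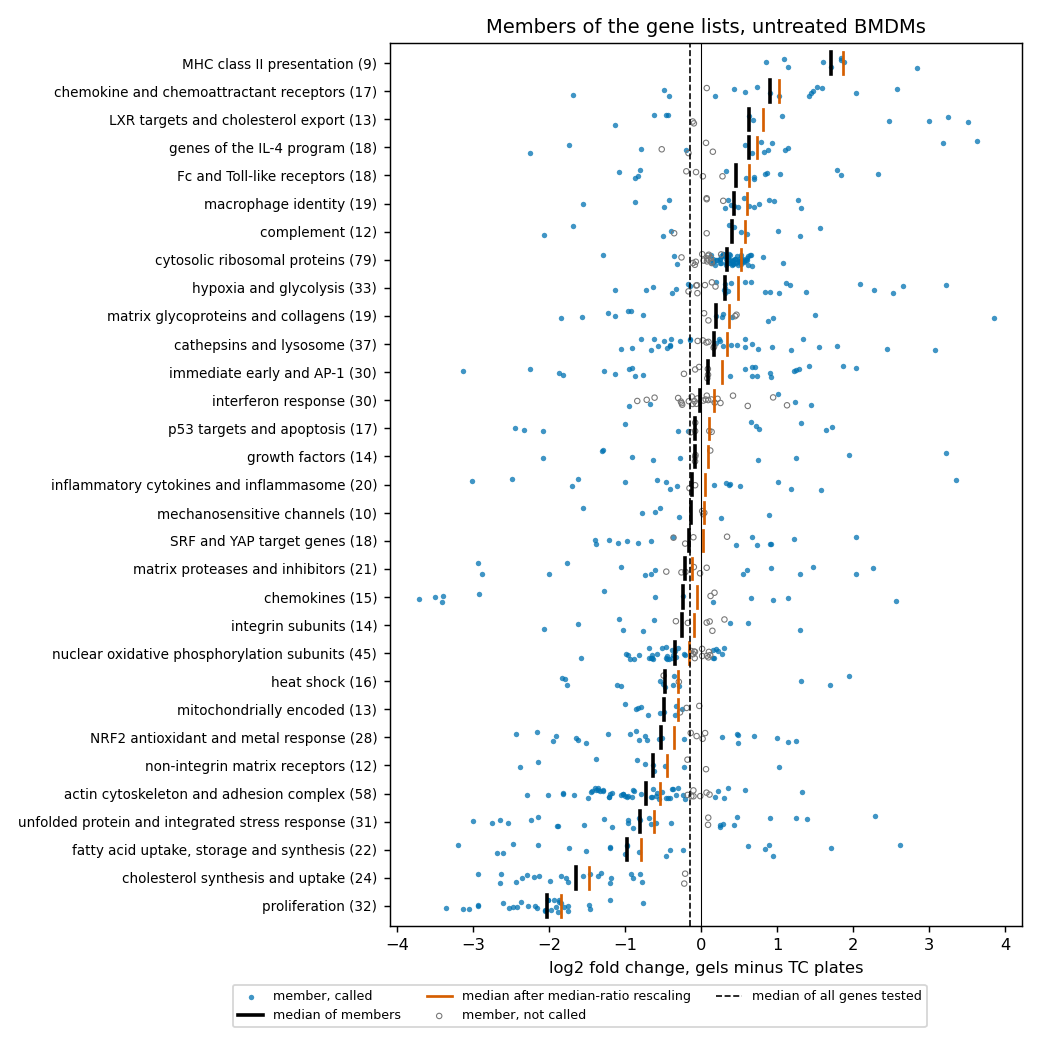
Each point is the log2 fold change of gels minus TC plates of a measured member of a gene list (filled: called, open: not called), with the number of members beside its name; black and orange bars are the medians without and with median-ratio rescaling. The medians ran from −2.03 for proliferation to 1.70 for MHC class II presentation, beside −0.15 for all genes (dashed).

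Chemokines of the CCL2 and CCL4 groups fell, and most receptors for chemoattractants rose. Of 15 chemokines, 8 were called lower (39.8% of all genes) and 5 higher (24.5% of all genes). Ccl2, which recruits monocytes, was at 1026 and 953 TPM on plates, 82.2 and 138 TPM in low-collagen and 64.8 and 41.3 TPM in high-collagen gels (log2 fold change −3.72, SE 0.21, adjusted p = 2.59e-07). Its neighbors on chromosome 11, Ccl12 (229 and 201 TPM on plates, 14.2 to 23.9 TPM in gels) and Ccl7 (−3.40), fell with it, and their sequences are related, so reads may be shared. Ccl4, an inflammatory CC chemokine, was at 325 and 342 TPM on plates and 22.3 to 39.9 TPM in gels (−3.41, SE 0.11), and Ccl3 fell by 2.92. Ccl5 rose from 1.89 and 4.28 TPM to 14.9 to 45.0 TPM. The list's median of −0.23 moved to −0.05 after rescaling and to 0.01 after correction for GC content and transcript length, so it has no direction of its own.

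Of 17 chemokine and chemoattractant receptors, 13 were called higher (24.5% of all genes), 11 of them in each gel, and 3 lower (median 0.91, 1.03 after rescaling). Ccr2, the receptor of Ccl2, Ccl7 and Ccl12, was at 2.95 and 5.04 TPM on plates, 22.1 and 23.5 TPM in low-collagen and 36.4 and 33.6 TPM in high-collagen gels (log2 fold change 2.58, SE 0.15, adjusted p = 3.59e-07). Cmklr1, the chemerin receptor, rose from 4.60 and 6.18 TPM to 22.8 to 27.3 TPM, and Cxcr4, the receptor of CXCL12, from 58.9 and 65.5 TPM to 153 to 177 TPM. C5ar1, which binds the complement fragment C5a, was the main exception, at 623 and 630 TPM on plates and 181 to 220 TPM in gels (−1.68, SE 0.08).

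Cytokine genes split. Among 20 inflammatory genes 9 rose (24.5% of all genes) and 9 fell (39.8% of all genes), and the median (−0.12) changed sign after rescaling (0.06). Il1b rose from 2.66 and 1.95 TPM to 27.8 to 34.7 TPM (log2 fold change 3.36, SE 0.29), while Il1rn, the antagonist of its receptor, fell from 84.5 and 83.9 TPM to 7.17 to 14.0 TPM (−3.02, SE 0.14). Tnf fell from 54.8 and 62.7 TPM to 8.41 to 12.7 TPM (−2.49). Of 30 interferon-stimulated genes, 25 were not called, 3 were called higher (24.5% of all genes) and 2 lower (39.8% of all genes). Their median of −0.01 became 0.17 after rescaling. Gbp2 was at 8.88 and 9.91 TPM on plates and 21.8 to 40.4 TPM in gels (1.44, SE 0.25), and Oas1a fell by 0.95. Rsad2 (1.01, adjusted p = 0.0164) was not called in high-collagen gels alone (0.82, adjusted p = 0.0755). It lost its call with no filter on low values (adjusted p = 0.0504). The call was also lost without plate library 1 or 2 (log2 fold change 0.95 and 1.08) and without high-collagen library 2 (0.82).

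MHC class II genes rose from a low level. All 9 measured genes of class II presentation were called higher (24.5% of all genes), 8 of them in each gel, with a median of 1.70 (1.87 after rescaling). H2-Ab1, a class II beta chain, was at 4.54 and 5.60 TPM on plates, 42.8 and 32.9 TPM in low-collagen and 50.2 and 46.1 TPM in high-collagen gels (log2 fold change 2.85, SE 0.12, adjusted p = 5.97e-08). Cd74, the invariant chain that escorts class II molecules, was at 12.99 and 14.9 TPM on plates and 44.9 to 60.3 TPM in gels (1.84, SE 0.07), and H2-Aa and H2-DMa rose by 1.89 and 1.70. These levels stayed far below those of Lyz2 or Apoe, and the markers of dendritic cells, the classic class II cells, stayed under 1 TPM in every library (8 of 8 genes, summed 1.48 and 1.87 TPM on plates and 1.21 to 3.02 TPM in gels). B cells also carry class II molecules, and their genes Ighm (7.33 and 6.67 TPM on plates, 136 to 216 TPM in gels) and Cd79b (1.02 and 1.50 TPM, 4.38 to 5.79 TPM) rose beside this list. Their part in it was not tested.

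Of 18 Fc and Toll-like receptor genes, 10 were called higher (24.5% of all genes) and 4 lower (39.8% of all genes; median 0.46, 0.64 after rescaling). Fcgr4, an activating Fc receptor, rose from 32.1 and 35.4 TPM to 167 to 182 TPM (log2 fold change 2.32, SE 0.06), and Fcgr2b, the inhibitory one, from 297 and 292 TPM to 1024 to 1120 TPM (1.84, SE 0.05). Tlr9 rose by 1.78 and Tlr8 by 1.04, and Tlr13 fell by 1.07. Complement genes were called higher in 7 of 12 cases (24.5% of all genes) and lower in 4. Of 19 macrophage identity genes, 13 rose (24.5% of all genes) and 4 fell (median 0.43, 0.61 after rescaling): Csf1r went from 704 and 730 TPM to 1625 to 1929 TPM (1.28, SE 0.05), Siglec1 by 1.31 and the efferocytosis receptor Mertk by 0.96, while Csf2ra, the GM-CSF receptor, fell from 139 and 162 TPM to 44.7 to 56.8 TPM.

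Genes of the actin cytoskeleton and of matrix adhesion were lower in gels. Of 58 measured genes of the actin cytoskeleton and adhesion complex, 45 were called lower (39.8% of all genes), 43 of them in each gel, and 6 higher, with a median of −0.72 (−0.54 after rescaling, when 39 were lower and 9 higher). Flna, the actin crosslinker filamin A, was at 487 and 481 TPM on plates, 109 and 129 TPM in low-collagen and 78.4 and 85.6 TPM in high-collagen gels (log2 fold change −2.29, SE 0.08, adjusted p = 2.05e-08). Actn1 and Actn4, the alpha-actinins, fell by 1.68 and 1.49, the adapter Pdlim7 by 2.02 and the tubulin Tubb6 by 1.81. Tln1, talin 1, which links integrins to actin, was at 296 and 310 TPM on plates and 112 to 122 TPM in gels (−1.36, SE 0.06). Actb, beta-actin, fell from 4842 and 4879 TPM to 1763 to 2376 TPM (−1.22, SE 0.05), a change of more than 2-fold in a gene that is often used as a reference.

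Integrin subunits as a list were near the shares of all genes: 6 of 14 were called lower (39.8% of all genes) and 3 higher (24.5%), or 5 higher after rescaling. Itgax (CD11c) fell from 12.6 and 13.4 TPM to 1.81 to 2.67 TPM, Itga5, the fibronectin receptor chain, from 89.2 and 86.6 TPM to 23.6 to 31.3 TPM (log2 fold change −1.62, SE 0.10), and the beta chains Itgb1 (−0.76), Itgb2 (−1.03) and Itgb3 (−1.09) fell with them. Among 12 non-integrin receptors 9 fell (39.8% of all genes) and 1, the syndecan Sdc1, rose (1.03). Msr1, the class A scavenger receptor, was at 429 and 413 TPM on plates and 60.4 to 95.4 TPM in gels (−2.39, SE 0.17), Cd44, the hyaluronan receptor, fell by 1.38 and Lair1, an inhibitory receptor for collagen, from 139 and 140 TPM to 75.2 to 79.9 TPM (−0.84, SE 0.07).

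Of 10 mechanosensitive channels, 5 fell and 2 rose, near the shares of all genes (median −0.14, and 0.04 after rescaling). Piezo1, the stretch-activated cation channel, was at 103 and 105 TPM on plates and 30.6 to 37.9 TPM in gels (log2 fold change −1.55, SE 0.12, adjusted p = 2.70e-06), and Trpv4 was at 4.88 and 4.61 TPM on plates and 8.66 to 10.6 TPM in gels (0.90, SE 0.11). Yap1, the mechanosensitive coactivator, was below 0.32 TPM in every library and was not tested. Among 18 target genes of SRF and YAP 7 rose and 8 fell. The structural targets Actb, Tpm1 (−1.40) and Tpm4 (−1.38) fell, and the early response genes Fos (36.2 and 40.1 TPM on plates, 67.9 to 107 TPM in gels) and Egr1 rose, and the list's median of −0.16 changed sign after rescaling (0.02).

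Matrix proteins and the enzymes that cut them changed in both directions, with shares of lower members close to the 39.8% of all genes. Of 19 matrix glycoproteins and collagens, 8 rose (24.5% of all genes) and 7 fell (median 0.19, 0.37 after rescaling): beside Thbs1, the lysyl oxidase Loxl3 rose (1.50), while Spp1, osteopontin, fell from 5778 and 5438 TPM to 1441 to 1652 TPM (log2 fold change −1.85, SE 0.06) and the laminin chain Lamc1 by 1.13. Of 21 matrix proteases and inhibitors, 8 fell and 7 rose. Mmp12, the macrophage elastase, was at 602 and 577 TPM on plates, 61.6 and 62.4 TPM in low-collagen and 86.2 and 101 TPM in high-collagen gels (−2.94, SE 0.07, adjusted p = 3.80e-09). Plau, urokinase, and its receptor Plaur fell by 2.88 and 2.01. Hpse, heparanase, rose from 61.6 and 61.2 TPM to 260 to 317 TPM (2.26, SE 0.08), and Mmp27 from 6.64 and 7.13 TPM to 23.4 to 44.9 TPM.

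Of 37 lysosomal genes, 17 were called higher (24.5% of all genes) and 14 lower, the latter near the 39.8% of all genes (median 0.17, 0.35 after rescaling). Atp6v0d2, a subunit of the proton pump that osteoclasts and IL-4-treated macrophages express, had the largest rise of the list, from 5.77 and 6.92 TPM to 78.4 and 71.0 TPM in low-collagen and 47.2 and 51.7 TPM in high-collagen gels (log2 fold change 3.08, SE 0.08). Psap, the precursor of the saposins, rose from 3696 and 3723 TPM to 10335 to 11152 TPM (1.55, SE 0.04), and the proteases Ctsf, Ctsh and Lgmn by 2.45, 1.79 and 1.18.

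Genes that IL-4 is known to induce changed in both directions in gels without IL-4, with more of them higher than lower. Of 18 measured members, 10 were called higher (24.5% of all genes) and 4 lower (median 0.63, 0.74 after rescaling). Arg1, arginase 1, was at 1.76 and 7.09 TPM on plates and 37.6 to 46.3 TPM in gels (log2 fold change 3.18, SE 0.31, adjusted p = 1.16e-05), Clec10a rose as above, and Il4ra, the receptor chain itself, rose from 57.9 and 62.8 TPM to 101 to 110 TPM. Myc fell from 48.6 and 50.7 TPM to 7.83 to 12.1 TPM (−2.25, SE 0.06). Mrc1, the mannose receptor, was at 353 and 340 TPM on plates and 327 to 404 TPM in gels, with groups that overlap, and Chil3 was at 1.15 and 3.50 TPM on plates and 1.78 to 3.03 TPM in gels. Neither was called (adjusted p = 0.500 and 0.586), although Chil3 was called higher without plate library 2 (0.69, adjusted p = 0.00374). Mrc1 was called higher after rescaling (0.25, adjusted p = 0.00934). Retnla, the gene of Fizz1, was called lower (−1.73, adjusted p = 0.00434) at levels near 0, 0.969 and 6.52 TPM on plates and between 0 and 0.390 TPM in gels. Ccl24 (1.15, adjusted p = 0.00894) reached at most 3.13 TPM and was not called in each gel alone. It lost its call without plate library 2 (log2 fold change 1.02). Rnase2a and Ear2 stayed under 1 TPM in all 6 libraries.

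Ribosomal and respiratory genes moved in opposite directions. Of 79 cytosolic ribosomal protein genes, 61 were called higher (24.5% of all genes) and 3 lower (median 0.34, 0.53 after rescaling), with small changes such as 0.81 for Rps14. Rpl27 was an exception (−1.29). Of 45 nuclear subunits of oxidative phosphorylation, 27 were called lower (39.8% of all genes) and 7 higher (median −0.34), but 22 and 11 after rescaling (−0.16), and Atp5g1, a subunit of the ATP synthase ring, was among those that fell (243 and 244 TPM on plates, 74.8 to 89.4 TPM in gels). Of the 13 mitochondrially encoded genes, 10 were called lower and none higher (0), or 7 after rescaling (medians −0.49 and −0.31). Among 30 immediate early and AP-1 genes 14 rose (24.5% of all genes) and 10 fell, with Dusp4, a phosphatase of MAP kinases, down from 37.6 and 44.6 TPM to 3.50 to 4.42 TPM and Nr4a1 up from 3.14 and 4.20 TPM to 8.77 to 25.1 TPM. Growth factors were near the shares of all genes (39.8% lower, 24.5% higher), with 6 of 14 called lower and 4 higher, Igf1 falling from 619 and 658 TPM to 242 to 286 TPM and Gdf15 from 78.5 and 99.7 TPM to 15.7 to 26.0 TPM.

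Markers of other cell types were near 0 with a few exceptions that moved with the gel. Of 10 neutrophil markers, 3 reached the filter and were called higher (24.5% of all genes). The summed level of the list was 14.7 and 10.5 TPM on plates and 32.2 to 49.5 TPM in gels. Mmp8 rose from 4.74 and 4.84 TPM to 12.1 to 16.3 TPM and S100a9 from 3.59 and 0.422 TPM to 7.96 to 17.7 TPM, while the defining markers Ly6g and Mpo were listed at 0 throughout. Of 12 lymphocyte markers 1, Cd79b, reached the filter, at 1.02 and 1.50 TPM on plates and 4.38 to 5.79 TPM in gels. Fibroblast markers summed to 4.21 and 4.42 TPM on plates and 3.38 to 5.44 TPM in gels, with Lum, Dpt and Postn at 0, and erythroid markers stayed at or under 0.76 TPM. Osteoclast markers summed to 41.3 and 40.0 TPM on plates and 84.0 to 109.6 TPM in gels, most of the gain from Atp6v0d2, with Calcr at 0. The part of such cells in the results was not tested.

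The gels themselves differed in 272 genes (2.29%): 107 were higher with high collagen and 165 were lower, and 271 of the 272 were also called against TC plates in at least 1 gel. These 271 became 16 with only the 6 untreated libraries in the fit. Fn1, fibronectin, was at 17.3 and 20.4 TPM on plates, 20.3 and 25.6 TPM in low-collagen and 55.3 and 55.1 TPM in high-collagen gels, so that plates and low-collagen gels overlapped and high-collagen gels stood above both. Its log2 fold change of high- minus low-collagen gels was 1.24 (SE 0.11, adjusted p = 0.00120), and it was called in all 18 refits tried. C3, the central complement component, was at 22.3 and 20.1 TPM on plates, 29.7 and 39.9 TPM in low-collagen and 77.6 and 89.7 TPM in high-collagen gels (1.25, SE 0.19, adjusted p = 0.0167). Egr1, an immediate early transcription factor, showed the opposite order, at 8.39 and 8.46 TPM on plates, 60.5 and 60.2 TPM in low-collagen and 29.0 and 18.8 TPM in high-collagen gels (−1.33, SE 0.22, adjusted p = 0.0229). Ccl7, which was at 635 and 612 TPM on plates, stood at 72.9 and 116 TPM in low-collagen and 47.2 and 28.6 TPM in high-collagen gels (−1.30, SE 0.23, adjusted p = 0.0252). C3, Egr1 and Ccl7 were called in 14, 12 and 13 of the 18 refits.

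**Figure D5:**
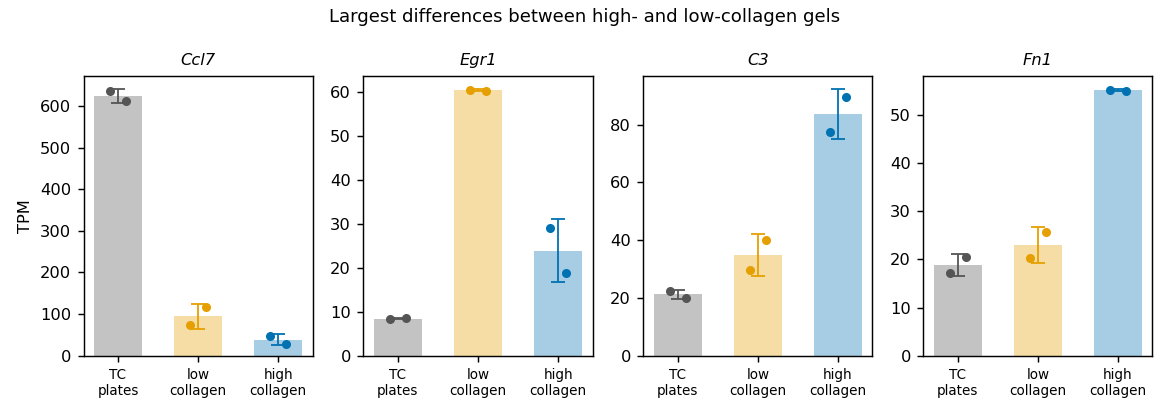
TPM of the 4 genes with the largest called difference between high- and low-collagen gels; bars are means, error bars are SD and points are the 2 libraries of each group. Fn1 and C3 were highest in high-collagen gels, Egr1 was highest in low-collagen gels and Ccl7 fell from 623 TPM on plates to 94.4 and 37.9 TPM in gels.

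With IL-4, the gels were compared with their own plate libraries, so that these values come from other samples. There, 7856 genes were called between gels and plates (66.1%), 2476 higher and 5380 lower, or 3776 higher and 3743 lower after rescaling. Of the 2252 genes called higher in each gel without IL-4, 1755 (77.9%) were also called higher with it and 37 lower. Of the 3996 called lower, 3724 (93.2%) were also called lower with it and 34 higher. Beside these stand 2476 higher and 5380 lower calls with IL-4 over all 11888 genes. Since rescaling evened the directions and the shared calls were counted without it, 77.9% and 93.2% are not to be compared. The gel effect itself differed between untreated and IL-4-treated BMDMs, by a test of the difference, in 1275 genes (10.7%). Vegfa (3.22 without and 3.06 with IL-4), Thbs1 (3.85 and 3.47) and Selenbp1 (3.62 and 3.56) were not among them, and Ms4a4a (4.74 and 0.79) was.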

How the data were processed

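Poly(A) RNA of 6 untreated BMDM libraries, with 6 further libraries treated with IL-4, was measured by RNA-seq. Per the labels and the study's methods, the authors made stranded libraries, estimated abundances with kallisto 0.46.1 on GRCm38 and deposited a table of TPM per gene; how transcripts were joined into genes is not given in the sources used here. Of 34456 lines, 129 repeats were collapsed. List members whose symbol had more than 1 identifier (31 symbols, such as Itgam) were left out of list counts. TPM keep no depth, so precision rests on the number of libraries.

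Values were log2(TPM + 1), which understates changes of low genes. limma 3.58.1 (R 4.3.3) fitted 1 mean per group over 12 libraries, letting the variance follow the mean, and p-values were adjusted by Benjamini and Hochberg over 11888 genes (called under 0.05). The fit was also run on simulated data with independent noise and few genes changed. Because 64.3% of genes were called here, that setting cannot give the share of false calls in this comparison. Signs of fold changes are gels minus TC plates. Tables and figures used python 3.11.15. Libraries that share a replicate number were checked for pairing, and the fit without that block was kept.

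Genes were named by a rule: the 8 largest rises and 8 largest falls called together and in each gel, with no overlap between groups and a mean of at least 10 TPM; up to 5 members of each list at a mean of at least 5 TPM; 12 genes of the study; and the 4 largest differences between gels. Members named beside these (Mki67, Pmvk, Tm7sf2, Pfkp, Ldha, Slc2a1, Hk2, Pfkfb3, Vldlr, Ddit4, Ccl5, Cxcr4, Cd79b) were chosen after their values were seen. So were Abcg1, Nr1h3 and Scarb1. Some genes that the rule names are not reported here. The comparison and the 38 lists were chosen with earlier results of these data known. Alternatives were another pseudocount (0.1), filters, scaling, a correction for GC content and length, thresholds, fewer libraries and each library left out.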

Additional observations from a re-analysis of the deposited data

Results flagged for a closer look

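The effect of the gel differed between untreated and IL-4-treated BMDMs in 1275 genes, by limma's test of the difference. Named genes are given here where this difference was called and the effects had opposite signs, each called, or lay at least 2 log2 units apart. Values are log2 fold changes of gels minus TC plates, and groups of 2 libraries are too small for a search for outlying libraries.

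Retnla was called lower in gels without IL-4 (−1.73, at levels near 0) and higher with it (4.79), when it was at 127 and 110 TPM on plates and 1152 to 9073 TPM in gels, a difference of −6.52 (adjusted p = 0.000156). Acod1, the itaconate-producing enzyme, fell without IL-4 (−1.62) and rose with it (1.93), a difference of −3.56 (adjusted p = 0.000702). Pdgfb likewise went from −0.91 to 0.37 (difference −1.28, adjusted p = 0.00235), and Mmp8 from 1.47 to −0.53 (difference 2.00, adjusted p = 0.000486).

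C3 rose in gels in both settings, by 1.30 without and 4.49 with IL-4 (difference −3.19, adjusted p = 4.98e-05). The rises of Ms4a4a (4.74 without, 0.79 with IL-4, difference 3.95, adjusted p = 7.09e-05), Atp6v0d2 (3.08 and 0.28, difference 2.80, adjusted p = 2.16e-06), Apoc1 (3.51 and 0.78, difference 2.73, adjusted p = 0.00610), Gprc5c (3.73 and 1.57, difference 2.16, adjusted p = 0.000532) and Angptl4 (2.61 and 0.50, difference 2.11, adjusted p = 0.000449) were smaller with IL-4. On plates, Ms4a4a was at 169 and 174 TPM and Atp6v0d2 at 317 and 321 TPM with IL-4. Without IL-4, the 4 gel libraries held 96.8 to 219 TPM of Ms4a4a, a range that includes those plate values, and 47.2 to 78.4 TPM of Atp6v0d2, all below them. Nr4a1 rose without IL-4 (1.87) and was not called with it (−0.13, adjusted p = 0.643; difference 2.01, adjusted p = 0.00471). The fitted differences of Retnla, Apoc1 and Gprc5c depend on the pseudocount, because some of their libraries are at or near 0.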

How the results depend on the processing

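Under every alternative except the 2-fold requirement, the number of genes called between gels and plates stayed within 1.5 times that reported (7648). With each library left out in turn it was 6545 to 7528 (low-collagen gels 6108 to 7025, high-collagen gels 6253 to 7231, called in each gel alone 5333 to 5879, with IL-4 7732 to 7881). Requiring a 2-fold change gave 2481, 2420, 2588, 2041 and 2327. The count between gels of genes also called against plates (271) fell to 16 with only the untreated libraries, 71 without the mean-variance trend, 38 with a 2-fold change and 38 to 138 with a library left out, and rose to 1365 at an adjusted p under 0.2; the cause of these shifts was not tested. Same-numbered libraries did not deviate together (correlations −0.15 to 0.10). The fit with the replicate block gave 172 genes between gels and, with median-ratio rescaling added after seeing the data, 131, and moved no other count by 1.5 times. The difference from the IL-4 setting (1275) was 717 to 1329 with a library left out (717 and 718 without a plate library), 276 with a 2-fold change and 3174 at 0.2. The distance ratio of 2.33 was 1.90 over the 500 most variable genes. Of 166 named genes, 164 were called, and 2 of these, Rsad2 and Ccl24, lost the call outside the 2-fold requirement. With a library left out, Chil3 ran from −0.38 (without plate library 1, adjusted p = 0.0544) to 0.69 (without plate library 2) and Mrc1 from −0.011 (without low-collagen library 2, adjusted p = 0.881) to 0.14 (without low-collagen library 1). Unknown depth limits statements on genes near 0 TPM.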
